A study of Homo sapiens with 12 samples.

Results

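The FOXO transcription factors FOXO1, FOXO3 and FOXO4 and 7 genes linked to FOXO activity or to the resting state of cells (TXNIP, PIK3IP1, CCNG2, BCL6, CITED2, KLHL24 and YPEL3) were followed in lung cancer cells exposed to inhibitors of the epidermal growth factor receptor (EGFR). They were taken by symbol from a table of reads per gene, where they are 10 of 60591 genes, and all 10 were among the 19108 genes with enough reads to be tested. RNA was sequenced from PC9 and H1650, established lines of non-small cell lung cancer that carry the same activating EGFR deletion and whose genotype is labelled wild-type, meaning not further edited. Each line gave 3 groups of 2 libraries, 12 libraries in 6 groups: T0, cells in DMSO vehicle collected when the drugs were added (0 h), and cells kept for 36 h in 10 µM erlotinib, a first-generation EGFR inhibitor, or in 0.1 µM osimertinib, a third-generation one. The question put to these libraries was whether the transcriptional response to EGFR inhibition differs between PC9 and H1650. No vehicle library at 36 h was analysed here, so a change from T0 covers both the drug and the time in culture.

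FOXO proteins bind DNA in the nucleus of cells that lack growth factor signals. In cells with active EGFR, the PI3K-AKT pathway phosphorylates them, 14-3-3 proteins hold them in the cytoplasm, and their targets are little transcribed. These targets include brakes on the cell cycle, genes of metabolism and stress resistance, and inhibitors of PI3K itself. mRNA levels, which are what was measured here, do not report where the FOXO proteins are.

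The promoter windows of the genes were searched for the letters of motifs that FOXO and other factors bind. They are given here because 4 of the 10 genes hold the FOXO consensus. In RefSeq (GRCh38.p14), the 10 genes have 18 windows that run from 250 bases before to 50 bases after a transcription start. The FOXO consensus GTAAACA, read on both strands (TGTTTAC on the other), was found in 4 of the 18 windows, against 3.42% of all 35116 windows of that length. By gene it was in 4 of 10, against 4.19% of 27305 genes. The 10 genes were picked as FOXO factors or linked genes and have more windows per gene than the whole, so these shares are descriptions. The insulin response motif CAAAACAA (TTGTTTTG on the other strand) was in none of the 18, against 1.68% of all windows. The E-box CACGTG, which factors of the MondoA and MYC families bind, was in windows of 2 of the 10 genes, CCNG2 and CITED2, against 8.77% of genes. Each line below is a stretch of 30 bases on the strand of the gene, with the motif in capitals. No 2 of the motifs overlap, and a match of letters is a description and not a site of binding.
TXNIP, chr1:145996685-145996714, minus strand: tcgggctcctgGTAAACAaggaccgggcag
YPEL3, chr16:30096195-30096224, minus strand: ctgggctcggtGTAAACAagtccaggcgcc
PIK3IP1, chr22:31292454-31292483, minus strand: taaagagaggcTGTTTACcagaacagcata
FOXO4, chrX:71095863-71095892, plus strand: cccggcgagtgGTAAACAgagacgtcagga
CCNG2, chr4:77157165-77157194, plus strand: tccgcggggagtCACGTGccccgccccctt
CITED2, chr6:139374784-139374813, minus strand: cagcctctgcagCACGTGccgcgggcggcg
The TXNIP motif begins 124 bases before the RefSeq start of its window, while those of YPEL3, PIK3IP1 and FOXO4 begin 1, 17 and 24 bases after theirs. The gene positions given below are from GENCODE 29, whose starts differ from these. The FOXO4 stretch, for example, lies before the GENCODE 29 start of that gene at 71096197. In PIK3IP1 the motif reads on the opposite strand. FOXO1, FOXO3, BCL6 and KLHL24 held none of the 3 motifs in these windows.

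Library totals ran from 17961765 to 26346187 reads. Levels are given as CPM, a gene's reads relative to all reads of the library, scaled by the trimmed mean of M values (TMM), with replicate 1 first, and 3 reads corresponded to 0.116 to 0.168 CPM. Replicates of every group differed by more than sampling noise, so no library was a copy of another. The labels number the replicates without saying whether they were separate cultures, while the authors describe these data as means of 2 biological replicates. A p-value measures the spread between these libraries. Markers of a lung epithelial line were present in every library (EPCAM at 199 to 541 CPM, KRT8 at 2060 to 4280), while the leukocyte markers PTPRC and CD3E reached at most 0.224 and 0.197 CPM. Of the fibroblast markers, DCN reached 0.0560 CPM and PDGFRB 1.02 CPM, and COL1A1 was at 9.95 to 44.7 CPM in every library. The endothelial markers PECAM1, VWF and CDH5 reached 1.61, 2.22 and 3.47 CPM. The part of such genes in the results was not tested. Mitochondrial genes took 4.36 to 5.36% of the reads in the 4 T0 libraries and 5.77 to 7.20% in the 8 libraries with drug, and the part of this in the results was not tested. In bulk RNA, fewer cells that express a gene and less RNA per cell cannot be told apart.

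In PC9, 9 of the 10 genes rose and 1, FOXO1, fell with each drug. Over all tested genes, 32.7% were called higher and 29.1% lower with erlotinib in PC9, and 32.7% and 28.7% with osimertinib. The median log2 fold change of the 10 genes was 2.36 with erlotinib and 2.58 with osimertinib, where the median over all genes was 0.0743 and 0.0644. In H1650, 9 genes rose with erlotinib and the tenth, CITED2, did not pass the test. With osimertinib 9 rose and TXNIP did not pass. The background in H1650 was 18.0% higher and 18.5% lower with erlotinib, and 17.8% and 17.9% with osimertinib. The medians of the 10 genes there were 0.725 and 1.04, against 0.00508 and 0 over all genes. The comparisons of the 2 drugs within a line share their T0 libraries. Because the 10 genes were chosen with earlier results of these data known, these counts are descriptions.

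**Figure D1:**
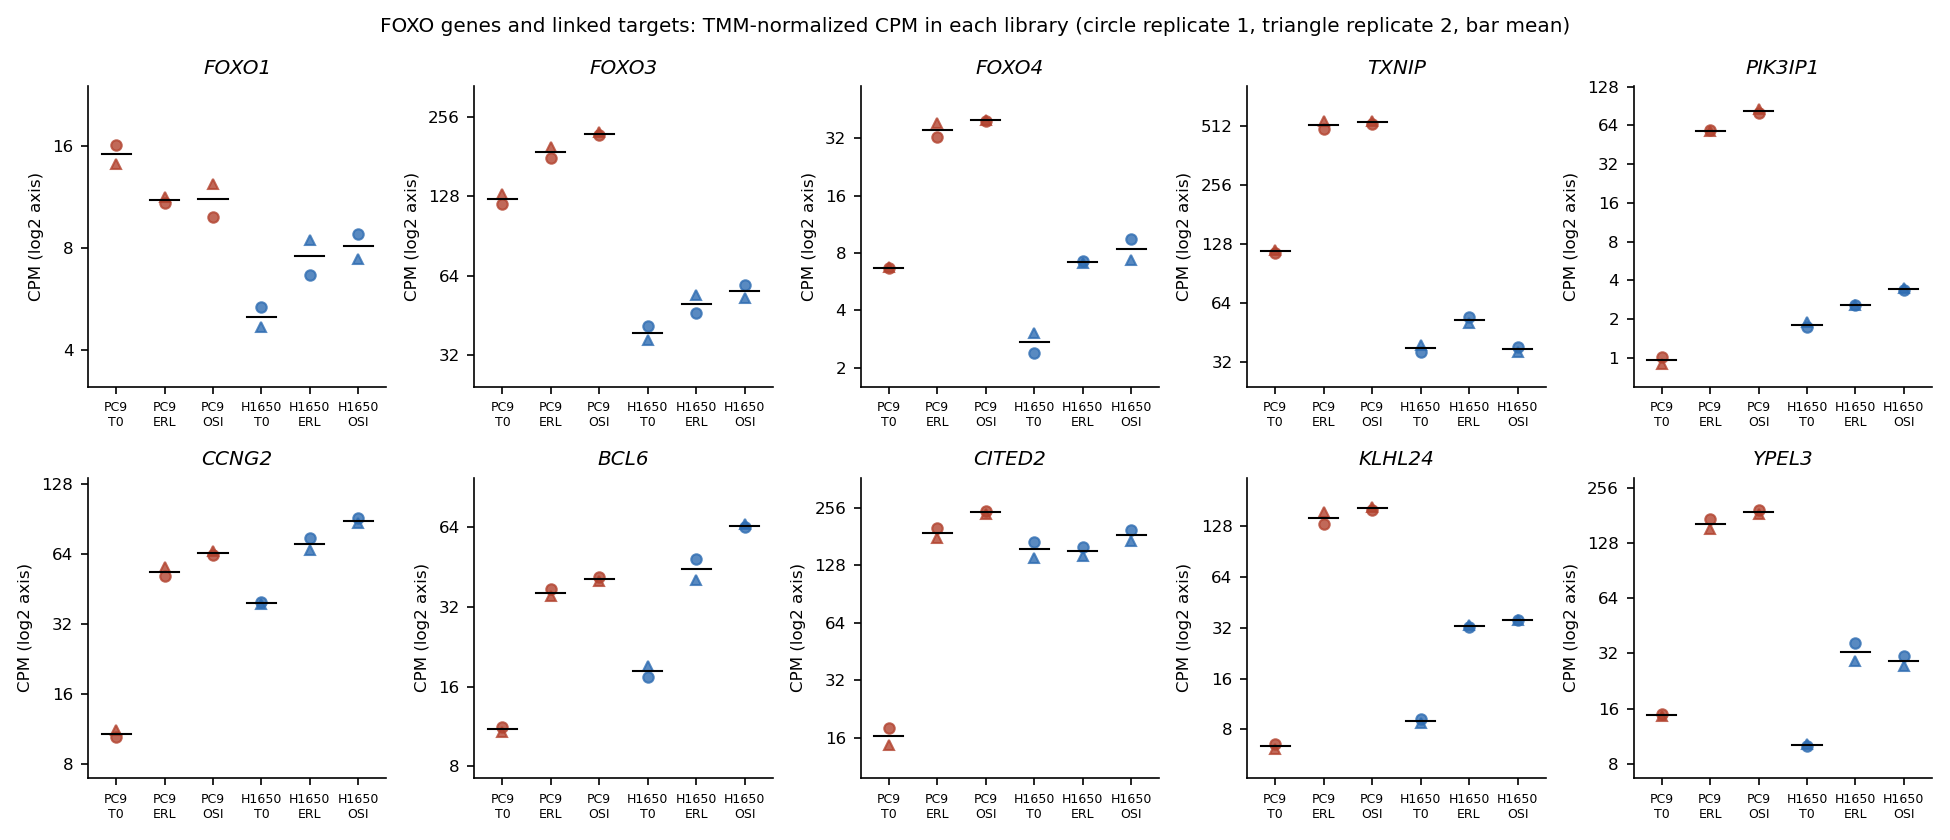
TMM-normalized CPM of each gene on a log2 axis, 1 panel a gene, in PC9 (red) and H1650 (blue) at T0 and after 36 h of erlotinib (ERL) or osimertinib (OSI). Circles are replicate 1, triangles replicate 2 and bars the mean of 2 libraries, and PIK3IP1 shows the widest step, from 0.948 CPM at T0 in PC9 to 58.4 CPM with erlotinib and 83.1 CPM with osimertinib.

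FOXO3 (chr6:108559835-108684774, plus strand; positions are from GENCODE 29 on GRCh38), the most abundant of the 3 factors, which responds to growth factor withdrawal in many tissues, stood at 120 and 130 CPM in PC9 at T0, at 178 and 197 CPM with erlotinib and at 218 and 223 CPM with osimertinib. In H1650 it was 41.4 and 36.4 CPM at T0, 46.0 and 54.1 CPM with erlotinib and 58.9 and 52.7 CPM with osimertinib. Both treated libraries lay above both T0 libraries in each case, and every H1650 library lay below every PC9 library. The log2 fold change was 0.58 ± 0.0850 (SE, adjusted p = 9.6e-07) and 0.81 ± 0.0852 (2.4e-09) in PC9, and 0.37 ± 0.0933 (0.00246) and 0.52 ± 0.0925 (5.0e-05) in H1650. Without replicate 2 of H1650 at T0, or without replicate 2 of H1650 with erlotinib, the erlotinib value in H1650 was 0.27 (adjusted p = 0.0707) or 0.24 (0.106). FOXO3 has a near-identical copy, FOXO3B, with which reads may have been split. FOXO3B was listed at 11.5 ± 1.87 CPM (SD, n = 2) in PC9 at T0 and passed the test with neither drug in either line.

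FOXO4 (chrX:71096197-71103535, plus strand), the smallest of the 3 genes in genomic span, changed most. It was at 6.65 and 6.71 CPM in PC9 at T0, 32.5 and 38.3 CPM with erlotinib and 39.5 and 40.1 CPM with osimertinib. In H1650 it went from 2.38 and 3.05 CPM to 7.22 and 7.07 CPM with erlotinib and 9.49 and 7.39 CPM with osimertinib. Treated and T0 libraries did not overlap in either line. The changes were 5.30-fold (log2 2.41 ± 0.138, adjusted p = 8.4e-15) and 5.96-fold (2.58 ± 0.138, 1.8e-15) in PC9, and 2.61-fold (1.38 ± 0.179, 4.9e-07) and 3.08-fold (1.62 ± 0.174, 2.1e-08) in H1650. With erlotinib, H1650 reached 7.14 CPM on average, which did not differ from the 6.68 CPM of PC9 at T0 (adjusted p = 0.598).

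FOXO1 (chr13:40469953-40666597, minus strand, where an exon overlaps LINC00598 on the same strand), a factor best known from insulin signalling in liver and from lymphocytes, went opposite ways in the lines. In PC9 it was at 16.1 and 14.2 CPM at T0, 10.9 and 11.3 CPM with erlotinib and 9.89 and 12.4 CPM with osimertinib. In H1650 it was at 5.36 and 4.66 CPM at T0, 6.65 and 8.47 CPM with erlotinib and 8.82 and 7.43 CPM with osimertinib. The T0 libraries were the highest of PC9 and the lowest of H1650, without overlap. FOXO1 fell in PC9 by 0.45 on the log2 scale with erlotinib (SE 0.152, adjusted p = 0.0123) and by 0.45 with osimertinib (SE 0.155, 0.0135), and rose in H1650 by 0.60 ± 0.177 (0.00810) and 0.70 ± 0.174 (0.00210). The falls in PC9 rest on few libraries. Without replicate 1 of PC9 at T0 they were -0.36 (adjusted p = 0.116) with erlotinib and -0.36 (0.120) with osimertinib. Without replicate 1 of PC9 with erlotinib the erlotinib value was -0.43 (0.0531), and without replicate 1 of PC9 with osimertinib the osimertinib value was -0.29 (0.200). DESeq2 gave the osimertinib fall an adjusted p of 0.0531. The rise in H1650 with erlotinib was 0.50 (0.0881) without replicate 2 at T0 and 0.41 (0.169) without replicate 2 with erlotinib.

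Divided by the gene lengths in the table, the 3 factors can be added. The fourth factor, FOXO6, is not part of this sum or of the shares. With erlotinib FOXO6 was at 15.5 CPM in H1650 and 15.9 CPM in PC9, where FOXO4 was at 7.14 and 35.4 CPM. The sum of the 3 was 20.6 ± 0.725 CPM per kb (SD, n = 2) in PC9 at T0, 35.7 ± 2.88 with erlotinib and 41.1 ± 0.923 with osimertinib. In H1650 the sum was 6.63 ± 0.414, 9.68 ± 0.941 and 10.9 ± 1.13 CPM per kb. FOXO3 made up 79.1% of the sum in PC9 at T0 and 76.5% in H1650. The share of FOXO4 was 8.54 ± 0.247% in PC9 at T0, 26.1 ± 0.912% with erlotinib and 25.6 ± 0.320% with osimertinib, and in H1650 10.9 ± 2.56%, 19.6 ± 2.18% and 20.4 ± 1.50%. The share of FOXO1 went from 12.3 ± 1.56% to 5.24 ± 0.305% and 4.54 ± 0.618% in PC9 and stood between 12.5% and 13.1% in the H1650 groups.

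**Figure D2:**
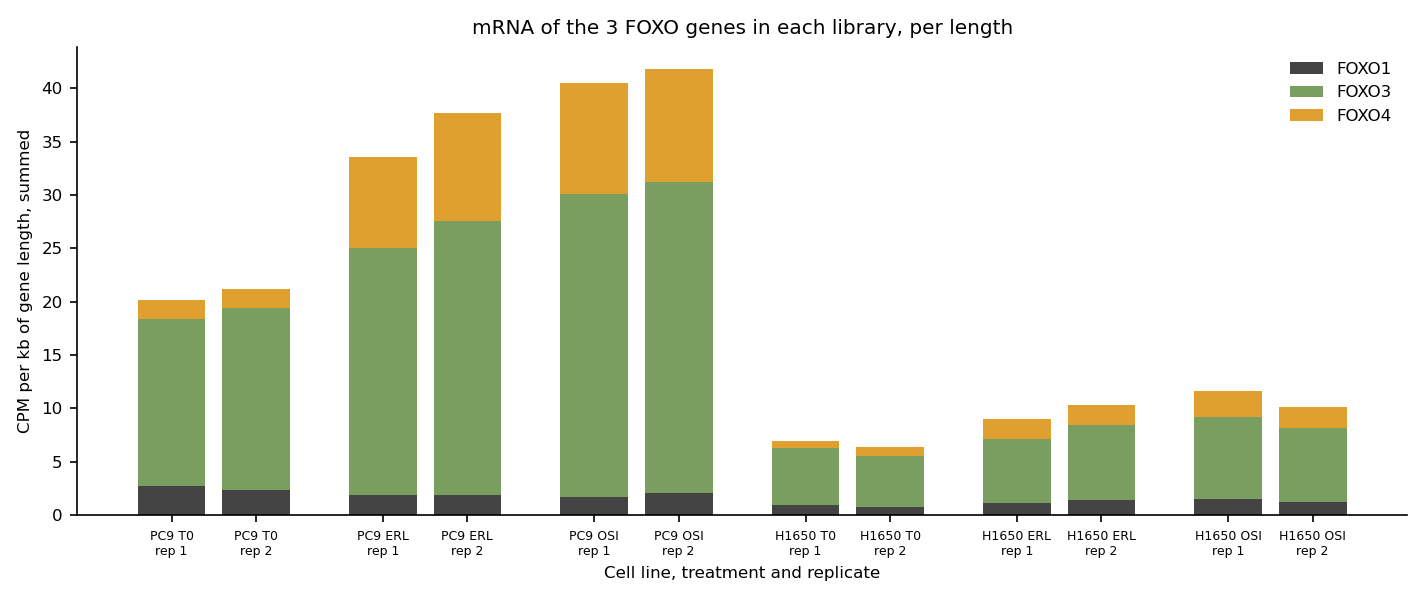
CPM per kb of gene length for FOXO1, FOXO3 and FOXO4, stacked, with 1 bar for each of the 12 libraries. FOXO3 is the largest part of every bar, and the FOXO4 part of the PC9 bars rises from 8.54% at T0 to 26.1% with erlotinib and 25.6% with osimertinib (means of 2 libraries).

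PIK3IP1 (chr22:31281593-31292534, minus strand), a membrane protein that binds and inhibits PI3K, showed the largest change of the 10 genes. It had 20 and 18 reads in the PC9 libraries at T0, or 1.01 and 0.888 CPM, and stood at 58.7 and 58.2 CPM with erlotinib and at 79.7 and 86.5 CPM with osimertinib. In H1650 it was at 1.72 and 1.89 CPM at T0, 2.58 and 2.56 CPM with erlotinib and 3.34 and 3.47 CPM with osimertinib. Every treated library of PC9 was above every H1650 library, while at T0 both PC9 libraries were below both H1650 libraries. In PC9 the rise was 61.3-fold (log2 5.94 ± 0.153, adjusted p = 2.5e-22) and 87.2-fold (6.45 ± 0.151, 4.3e-23), from a level well above the 3 reads taken as the floor. In H1650 it was 1.41-fold with erlotinib (0.50 ± 0.199, 0.0491) and 1.88-fold with osimertinib (0.91 ± 0.186, 2.8e-04). The first of these, with 37 to 55 reads behind each value, passed the test in no fit that left out a library (adjusted p = 0.0584 to 0.204) and not with DESeq2 (0.119). An antisense gene, PIK3IP1-AS1, overlaps it, and since the strand setting of the counting is not given in the sources used here, reads of the pair may be mixed.

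TXNIP (chr1:145992435-145996600, minus strand), the thioredoxin-interacting protein, restrains glucose uptake and is transcribed both under FOXO and under the glucose-sensing factor MondoA. In PC9 it was at 115 and 119 CPM at T0, 494 and 544 CPM with erlotinib and 521 and 542 CPM with osimertinib. H1650 had 35.7 and 39.1 CPM at T0, 54.0 and 50.1 CPM with erlotinib, and 38.2 and 35.7 CPM with osimertinib. Only erlotinib separated treated from T0 libraries in H1650, and with osimertinib the groups overlapped. TXNIP rose 4.44-fold (2.15 ± 0.0760, adjusted p = 1.7e-19) and 4.55-fold (2.19 ± 0.0762, 1.2e-19) in PC9, and 1.39-fold with erlotinib in H1650 (0.47 ± 0.0818, 3.7e-05). The osimertinib difference in H1650 was -0.019 (95% interval -0.190 to 0.152, adjusted p = 0.900). Per length, TXNIP was the most abundant of the 10 genes in PC9, at 32.4 CPM per kb at T0 and 148 with osimertinib.

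CCNG2 (chr4:77157151-77433388, plus strand), cyclin G2, an unusual cyclin that slows the cell cycle and a textbook FOXO target, was at 10.4 and 11.2 CPM in PC9 at T0, 51.3 and 56.1 CPM with erlotinib and 63.7 and 65.7 CPM with osimertinib. H1650 started at 39.9 and 38.9 CPM and stood at 75.3 and 66.7 CPM with erlotinib and 91.1 and 87.0 CPM with osimertinib. All treated libraries were above the T0 libraries of their line. The rise was 4.97-fold (2.31 ± 0.0994, adjusted p = 1.4e-17) and 5.98-fold (2.58 ± 0.0995, 1.1e-18) in PC9, and 1.80-fold (0.85 ± 0.0852, 6.4e-09) and 2.26-fold (1.18 ± 0.0846, 1.3e-11) in H1650. H1650 with erlotinib, at 71.0 CPM, and PC9 with osimertinib, at 64.7 CPM, were neighbours in level that did not differ beyond their spread (adjusted p = 0.152). GENCODE 29 holds 1 pseudogene named after CCNG2, and any sharing of reads with it was not tested.

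BCL6 (chr3:187721377-187745727, minus strand), a transcriptional repressor known from germinal centre B cells, rose in both lines. It was at 11.3 and 10.8 CPM in PC9 at T0, 37.5 and 35.1 CPM with erlotinib and 41.7 and 40.1 CPM with osimertinib. H1650 had 17.4 and 19.2 CPM at T0, 48.7 and 40.4 CPM with erlotinib and 64.1 and 65.9 CPM with osimertinib. Treated libraries exceeded T0 libraries in each line. BCL6 rose 3.29-fold (1.72 ± 0.109, adjusted p = 8.5e-14) and 3.71-fold (1.89 ± 0.110, 1.0e-14) in PC9 and 2.43-fold (1.28 ± 0.101, 7.2e-11) and 3.55-fold (1.83 ± 0.0997, 5.0e-14) in H1650. Transcripts AC072022.1 and AC072022.2 overlap BCL6 on the opposite strand.

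CITED2 (chr6:139371807-139374620, minus strand), a coactivator partner that competes with HIF1A for CBP and p300, separated the lines at T0. PC9 had 18.0 and 14.7 CPM at T0, 201 and 178 CPM with erlotinib and 246 and 239 CPM with osimertinib. H1650 had 170 and 140 CPM at T0, 160 and 143 CPM with erlotinib and 196 and 171 CPM with osimertinib. The 2 PC9 libraries at T0 were the only low ones of the 12, and 3 of the 4 treated PC9 libraries lay above every H1650 library. In PC9 CITED2 rose 11.6-fold (3.53 ± 0.112, adjusted p = 1.4e-20) and 14.9-fold (3.89 ± 0.113, 2.1e-21). In H1650 the erlotinib difference was -0.030 (95% interval -0.223 to 0.162, adjusted p = 0.846). The osimertinib rise there, 1.19-fold (0.25 ± 0.0931, 0.0402), had adjusted p = 0.0816 with DESeq2, 0.485 without replicate 2 at T0 and 0.380 without replicate 1 with osimertinib. PC9 with erlotinib (189 CPM) and H1650 with osimertinib (184 CPM) did not differ beyond their spread (0.675).

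KLHL24 (chr3:183635568-183684477, plus strand), an adaptor of a CUL3 ubiquitin ligase that turns over keratin 14 in skin, had the second largest change in PC9. It was at 6.60 and 6.17 CPM in PC9 at T0, 132 and 155 CPM with erlotinib and 160 and 165 CPM with osimertinib. H1650 had 9.27 and 8.71 CPM at T0, 32.3 and 33.2 CPM with erlotinib and 35.6 and 35.3 CPM with osimertinib. Treated and T0 libraries lay far apart in both lines. The rise was 22.5-fold (4.49 ± 0.106, adjusted p = 4.7e-23) and 25.4-fold (4.67 ± 0.106, 2.9e-23) in PC9, and 3.65-fold (1.87 ± 0.104, 5.0e-14) and 3.95-fold (1.98 ± 0.103, 1.9e-14) in H1650, where it was the largest change of the 10 genes.

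YPEL3 (chr16:30092314-30096915, minus strand), a small zinc-binding protein of the Yippee family linked to growth arrest and senescence, was at 15 and 14.6 CPM in PC9 at T0, 173 and 153 CPM with erlotinib and 194 and 185 CPM with osimertinib. H1650 had 10.0 and 10.2 CPM at T0, 36.3 and 29 CPM with erlotinib and 30.9 and 27.3 CPM with osimertinib. No treated library came near a T0 library of its line. The rise was 11-fold (3.46 ± 0.104, adjusted p = 5.0e-21) and 12.8-fold (3.68 ± 0.105, 1.6e-21) in PC9, and 3.23-fold (1.69 ± 0.112, 2.2e-12) and 2.87-fold (1.52 ± 0.113, 2.3e-11) in H1650. A transcript on the opposite strand, AC012645.1, overlaps YPEL3.

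The lines differed before any drug. At T0 all 10 genes passed the test between the lines, 5 higher and 5 lower in H1650, where 35.8% of all genes were higher and 33.8% lower. The 3 factors were lower in H1650, FOXO1 by 3.03-fold, FOXO3 by 3.23-fold and FOXO4 by 2.44-fold, as were TXNIP (3.12-fold, adjusted p = 1.7e-16) and YPEL3 (1.46-fold, 2.4e-04). CITED2 (9.47-fold, 5.4e-20), CCNG2 (3.64-fold, 1.7e-15), PIK3IP1 (1.91-fold, 0.00158), BCL6 (1.66-fold, 2.4e-06) and KLHL24 (1.41-fold, 0.00126) were higher in H1650. Per length, the most abundant of the 10 genes at T0 was TXNIP in PC9 (32.4 CPM per kb) and CITED2 in H1650 (60.4 CPM per kb), and the least abundant was PIK3IP1 in both (0.249 and 0.475 CPM per kb).

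After drug, 2 genes were higher and 8 lower in H1650 than in PC9 with erlotinib, and likewise 2 and 8 with osimertinib. Of all genes, 36.7% were higher and 35.4% lower in H1650 with erlotinib, and 36.6% and 35.0% with osimertinib. These comparisons of the lines under drug were added after the data were seen. The genes that were higher in H1650 were CCNG2 and BCL6. PIK3IP1 was 22.7-fold lower with erlotinib (adjusted p = 7.6e-22) and 24.3-fold lower with osimertinib (1.2e-22), although it had been 1.91-fold higher at T0. KLHL24 turned in the same way, from 1.41-fold higher to 4.38-fold lower (1.9e-18) and 4.58-fold lower (8.5e-19). CITED2 went from 9.47-fold higher to 1.25-fold lower with erlotinib (0.00326) and 1.32-fold lower with osimertinib (3.5e-04). Several of the smaller differences rest on single libraries. With erlotinib, CITED2 did not pass without replicate 1 of PC9 with erlotinib (adjusted p = 0.0538). BCL6, at 0.29, became 0.25 without replicate 2 of PC9 with erlotinib (0.0671) and 0.16 without replicate 1 of H1650 with erlotinib (0.227), and FOXO1 did not pass without that H1650 library (0.0797). With osimertinib, FOXO1 went from -0.45 to -0.28 without replicate 2 of PC9 with osimertinib (0.202) and to -0.33 without replicate 2 of H1650 with osimertinib (0.143).

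The difference between the lines in the drug response itself was tested by subtracting the PC9 change from the H1650 change. With erlotinib it passed for 9 genes, 1 higher and 8 lower, and with osimertinib for 8, 1 higher and 7 lower. The background was 21.1% higher and 19.8% lower with erlotinib, and 21.5% and 20.5% with osimertinib. The term was largest for PIK3IP1, at -5.44 ± 0.285 on the log2 scale with erlotinib (adjusted p = 4.5e-15) and -5.54 ± 0.280 with osimertinib (2.4e-15). CITED2 followed at -3.57 ± 0.145 (2.3e-17) and -3.65 ± 0.145 (1.9e-17), and KLHL24 at -2.62 ± 0.153 (4.7e-14) and -2.69 ± 0.152 (2.6e-14). FOXO1 was the only gene of the 10 with a positive term, 1.05 ± 0.233 (5.5e-04) and 1.15 ± 0.233 (1.9e-04). FOXO3 did not pass, at -0.21 (95% interval -0.473 to 0.0441, adjusted p = 0.187) with erlotinib and -0.29 (-0.550 to -0.0345, 0.0634) with osimertinib, although the osimertinib term passed with upper quartile scaling (0.0209), when only genes with 10 or more counts in each library were kept (0.0328), without replicate 2 of H1650 at T0 (0.0316) and without replicate 1 of H1650 with osimertinib (0.0492). BCL6 passed with erlotinib (-0.44 ± 0.150, 0.0193) and not with osimertinib (-0.067, -0.372 to 0.239, 0.777). The erlotinib term of BCL6 did not pass without replicate 2 of PC9 at T0 (0.0829), replicate 1 of PC9 with erlotinib (0.0592), replicate 2 of H1650 at T0 (0.103) or replicate 2 of H1650 with erlotinib (0.153).

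**Figure D3:**
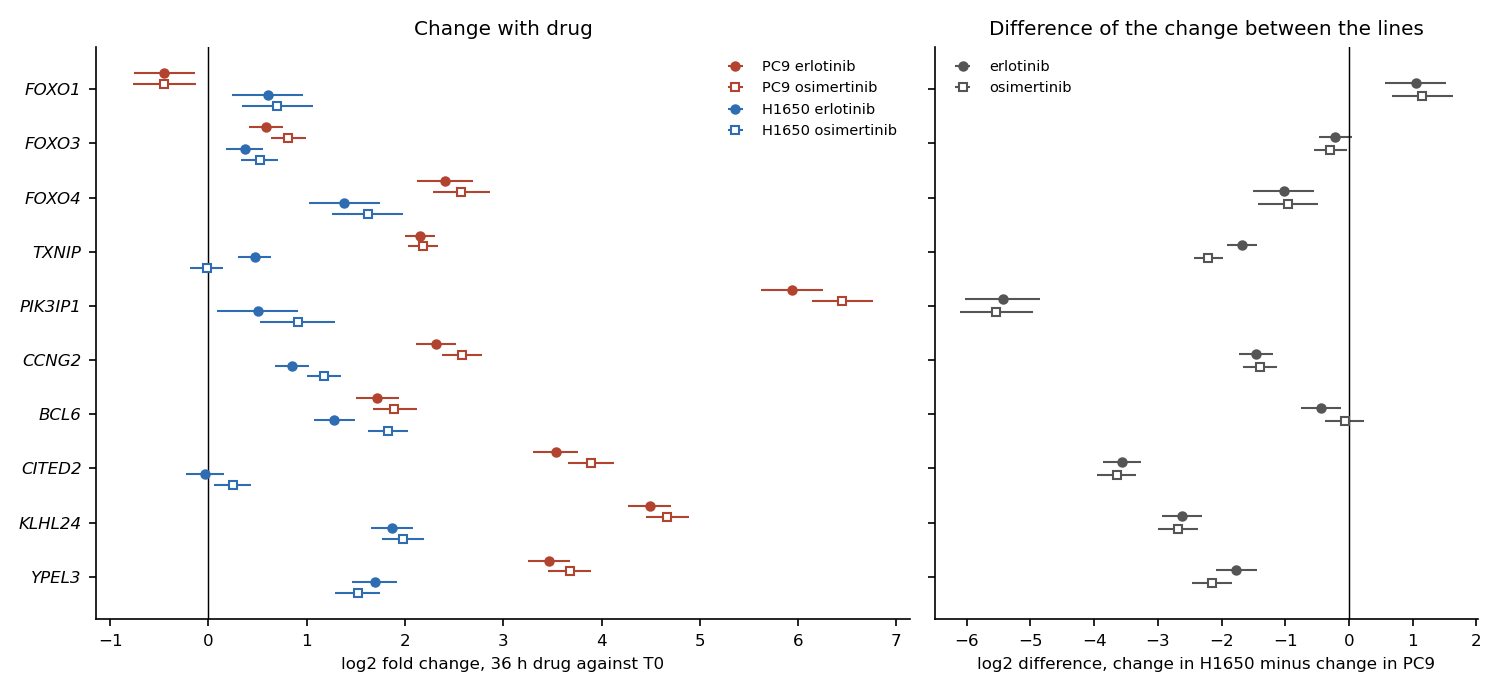
Left, log2 fold change of each gene after 36 h of drug against T0, with 95% intervals from edgeR's quasi-likelihood fit, in PC9 (red) and H1650 (blue) for erlotinib (filled circles) and osimertinib (open squares). Right, the H1650 change less the PC9 change on the log2 scale, where PIK3IP1 lies lowest at -5.44 and -5.54 and FOXO1 alone lies above 0 with both drugs.

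The 2 inhibitors were used at different doses, so values under osimertinib and erlotinib differ in dose as well as in compound, and both comparisons hold for these doses only. In PC9, 3 genes were higher with osimertinib and the other 7 did not pass, against 10.1% higher and 6.41% lower over all genes. They were PIK3IP1 (1.42-fold, adjusted p = 1.4e-04), CITED2 (1.28-fold, 0.00654) and CCNG2 (1.20-fold, 0.0270). Only PIK3IP1 remained past the test without replicate 1 of PC9 with osimertinib, where the adjusted p was 0.0521 for CITED2 and 0.0771 for CCNG2. Without replicate 1 or 2 of PC9 with erlotinib, CCNG2 (0.230) or CITED2 (0.0958) was lost, and without replicate 2 of PC9 with osimertinib CCNG2 was (0.155). In H1650, CCNG2 (1.25-fold, 0.00991) and BCL6 (1.46-fold, 2.0e-04) were higher with osimertinib and TXNIP was 1.41-fold lower (1.5e-04), against 5.02% higher and 3.73% lower over all genes. CCNG2 in H1650 did not pass without replicate 2 with erlotinib (0.180) or replicate 1 with osimertinib (0.123). Some genes that did not pass were close to the threshold. FOXO3 in PC9 was at 0.23 on the log2 scale (adjusted p = 0.0575). It passed when only genes with 10 or more counts in each library were kept (0.0472) and with 1 fit per cell line (0.0497). CITED2 in H1650, at 0.28 (0.0657), passed without the filter (0.00509). For TXNIP in PC9 the difference was 0.035 on the log2 scale (95% interval -0.112 to 0.182), and for FOXO1 it was -0.0017 (-0.322 to 0.319) in PC9 and 0.099 (-0.247 to 0.444) in H1650.

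The wider pathway was read from lists written from general knowledge. Of 34 other genes reported as FOXO targets, all tested, 26 were higher and 6 lower with erlotinib in PC9 (median log2 fold change 1.37) and 25 and 6 with osimertinib (1.37). In H1650 the counts were 19 and 6 (0.345) and 18 and 5 (0.371). Over all tested genes, 32.7% were higher and 29.1% lower with erlotinib in PC9, and 32.7% and 28.7% with osimertinib. The shares in H1650 were 18.0% and 18.5% with erlotinib, and 17.8% and 17.9% with osimertinib. TP53INP1, an autophagy and stress protein, was at 0.300 ± 0.0750 CPM (SD, n = 2) in PC9 at T0, 40.1 ± 0.860 with erlotinib and 45.4 ± 0.240 with osimertinib, and in H1650 it was at 8.84 ± 1.83, 26.8 ± 1.90 and 28.3 ± 0.666 CPM. TNFSF10, the death ligand TRAIL, rose in PC9 (log2 3.34 ± 0.216 and 4.27 ± 0.208) and in H1650 (2.80 ± 0.226 and 3.10 ± 0.220). BCL2L11, which encodes the pro-apoptotic protein BIM, rose by 1.67 ± 0.0908 and 1.70 ± 0.0914 in PC9 and by 0.59 ± 0.0832 and 0.73 ± 0.0827 in H1650. The targets did not all rise.

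CDKN1B, the CDK inhibitor p27, rose in PC9 (0.69 ± 0.0837, adjusted p = 4.4e-08, and 0.98 ± 0.0839, 4.5e-11). In H1650 its values of 0.20 and 0.083 did not pass (0.0761 and 0.494). CDKN1A, the CDK inhibitor p21, fell in PC9 by 1.33 (3.1e-11) with erlotinib and by 0.48 (3.1e-04) with osimertinib. It fell in H1650 by 0.52 with erlotinib (2.5e-05), while its osimertinib value of -0.16 did not pass (0.146). BNIP3, a mitophagy receptor, fell in PC9 with both drugs (-0.42, 2.4e-04, and -0.48, 5.9e-05) and in H1650 with erlotinib (-1.10, 3.6e-11), at -0.15 with osimertinib (0.147).

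**Figure D4:**
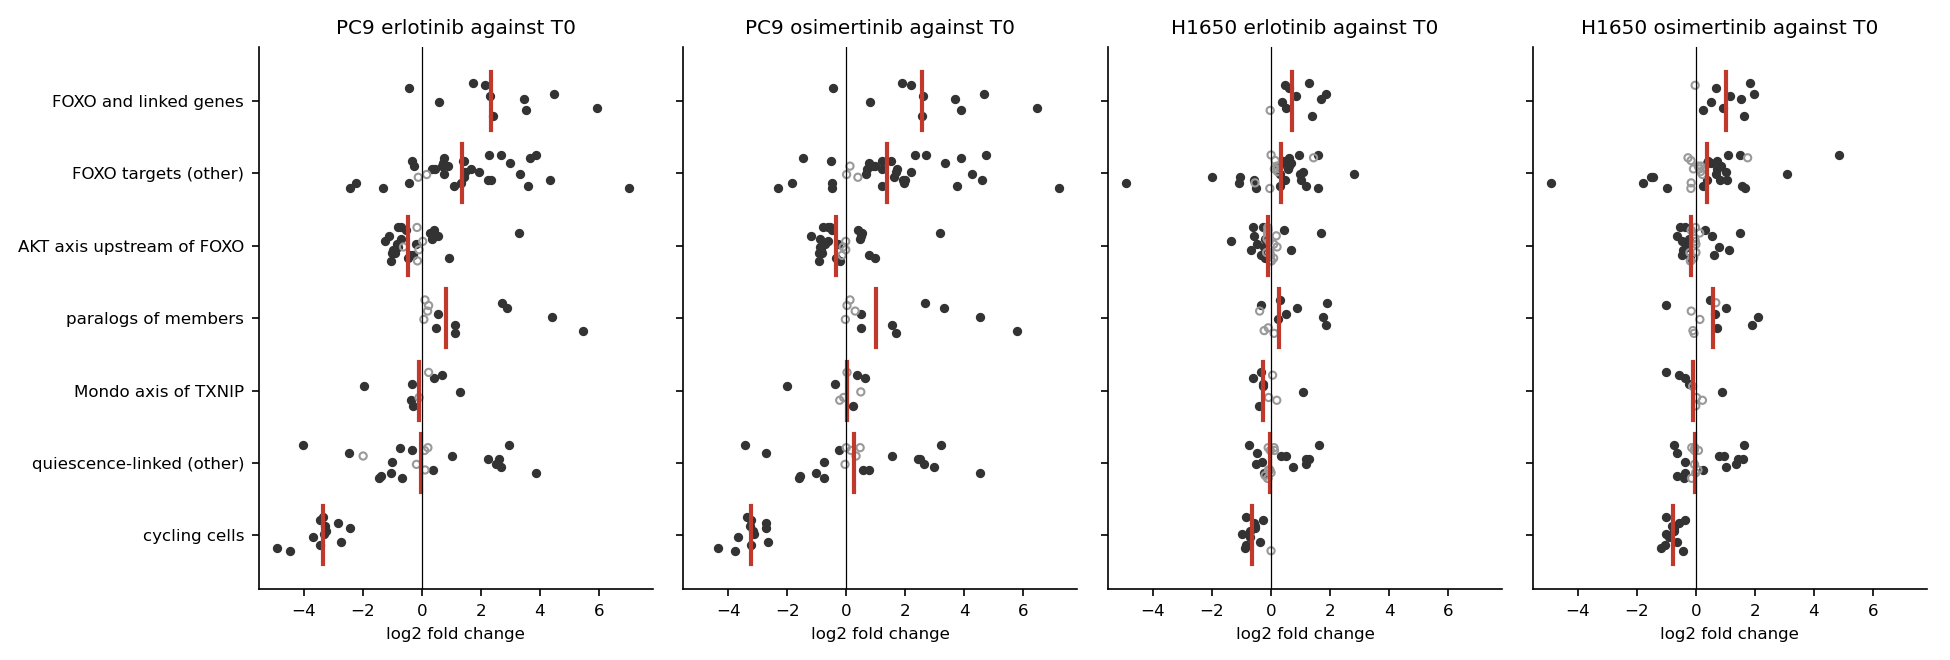
Log2 fold change of every tested gene of each list against T0, 1 panel for each line and drug on 1 common axis. Filled points passed the test (adjusted p under 0.05), open points did not, and red bars are medians. For PC9 the 10 genes have medians of 2.36 and 2.58 and for H1650 of 0.725 and 1.04, and the cycling genes lie at -3.33, -3.23, -0.654 and -0.774.

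Upstream of FOXO, 27 of 28 genes that act on FOXO proteins were tested (PIK3R2 had too few reads). They cover PI3K-AKT signalling, related kinases, 14-3-3 proteins, the nuclear exporter XPO1, the deubiquitinase USP7 and the ubiquitin ligase subunit SKP2. In PC9, 6 were higher and 16 lower with erlotinib and 7 and 16 with osimertinib, and in H1650 3 and 10, and 6 and 10. Of all genes, 32.7% were higher and 29.1% lower with erlotinib in PC9, and 32.7% and 28.7% with osimertinib. Those shares in H1650 were 18.0% and 18.5%, and 17.8% and 17.9%. AKT1 fell in both lines with both drugs, by 0.70 and 0.78 in PC9 and by 0.28 and 0.35 in H1650 (largest adjusted p = 0.00419). AKT2 passed in none of the 4 comparisons, with values between -0.066 and 0.033.

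Among 14 paralogs of the 10 genes, 12 were tested (CITED1 and BCL6B had too few reads). In PC9, 8 rose with each drug and the other 4 did not pass. In H1650, 7 rose and 1 fell with erlotinib and 6 and 1 with osimertinib. Of all genes, 32.7% were higher with each drug in PC9. The shares higher and lower in H1650 were 18.0% and 18.5% with erlotinib, and 17.8% and 17.9% with osimertinib. YPEL2 was at 1.27 ± 0.369 CPM in PC9 at T0, 27.0 ± 2.13 with erlotinib and 29.5 ± 1.57 with osimertinib, and at 3.58 ± 0.478, 12 ± 1.56 and 15.5 ± 2.45 CPM in H1650. YPEL5 was at 13.9 ± 0.525, 103 ± 1.15 and 137 ± 2.18 CPM in PC9 and at 49.4 ± 0.996, 90.4 ± 0.973 and 100 ± 2.81 CPM in H1650. YPEL2 and YPEL5 passed in all 4 comparisons, as YPEL3 did.

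ARRDC4, the arrestin-like paralog of TXNIP that shares its MondoA control, did not rise where TXNIP rose. Its values in PC9, 0.23 and 0.020, did not pass (adjusted p = 0.133 and 0.926), while it fell in H1650 by 0.35 (0.0367) and by 1.01 (1.0e-06). Its drug-by-line terms were negative, as those of TXNIP were, at -0.58 with erlotinib (0.0133) and -1.03 with osimertinib (7.4e-05). The part of MondoA in either gene was not tested. In the 9 genes of the MondoA and thioredoxin axis, 3 were higher and 4 lower with erlotinib in PC9, and 3 and 2 with osimertinib. The counts in H1650 were 1 and 5 with erlotinib and 1 and 4 with osimertinib. Of all genes, 32.7% were higher and 29.1% lower with erlotinib in PC9, and 32.7% and 28.7% with osimertinib. Those shares in H1650 were 18.0% and 18.5%, and 17.8% and 17.9%. TXN, the thioredoxin that TXNIP binds, fell in PC9 by 0.33 (2.4e-04) and 0.38 (3.8e-05) and in H1650 by 0.28 (0.00298) and 0.22 (0.0193).

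The list of 22 other genes linked to quiescence mixes arrest genes with subunits of the complexes that repress or activate cell cycle genes, such as LIN9, TFDP1 and MYBL2. With erlotinib in PC9, 8 were higher and 9 lower, where 32.7% and 29.1% of all genes were. The counts were 9 and 8 with osimertinib in PC9, 7 and 5 with erlotinib in H1650 and 8 and 6 with osimertinib. The shares of all genes in these 3 comparisons were 32.7% and 28.7%, 18.0% and 18.5%, and 17.8% and 17.9%. MYBL2, a factor of dividing cells singled out after its values were seen, fell from 340 ± 0.239 to 21.1 ± 0.664 CPM with erlotinib in PC9 (adjusted p = 2.4e-24). All 12 genes of cycling cells fell in PC9 with both drugs and in H1650 with osimertinib, and 11 fell in H1650 with erlotinib. MKI67, the proliferation marker Ki-67, was at 408 ± 34.6 CPM in PC9 at T0 and at 40.6 ± 7.62 and 46.2 ± 4.66 CPM with drug. In H1650 it was at 504 ± 11.2 CPM at T0 and at 257 ± 50.3 and 249 ± 4.77 CPM. The drug-by-line term was positive for all 12 cycling genes with each drug (medians 2.55 and 2.40), and the part of cell cycling in the changes of the 10 genes was not tested.

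For each of the 10 genes, the gene whose log2 CPM was closest over the 12 libraries was sought among tested genes with a mean of at least 10 CPM. The 12 values share 2 lines and 3 treatments, so the correlation describes this design only. For FOXO1 it was MANSC1 (Pearson r = 0.971), which went from 49.6 ± 0.847 CPM at T0 to 28.9 ± 2.20 with erlotinib in PC9 and from 9.00 ± 0.846 to 16.3 ± 0.459 in H1650. For FOXO3 it was CCDC127 (0.993), for FOXO4 SH3YL1 (0.992) and for TXNIP SGPP1 (0.996). For CCNG2 it was IRF1 (0.993), for BCL6 RGL2 (0.990) and for PIK3IP1 TM7SF2 (0.993). EFNA1 was closest to CITED2 (0.991), ZBTB4 to KLHL24 (0.992) and GSTK1 to YPEL3 (0.996). GSTK1 stood at 99.0 ± 4.65 CPM in PC9 at T0 and 394 ± 8.06 and 470 ± 13.8 CPM with drug, and at 86.2 ± 1.01, 145 ± 7.25 and 148 ± 3.36 CPM in H1650.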

How the data were processed

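RNA-seq libraries of PC9 and H1650 cells (2 per group) were grouped by their deposited labels. The deposited values are counts of reads per gene, which the authors made with the DolphinNext pipeline and featureCounts and did not normalize. The submitters' processing notes name GRCh38 and DESeq2. The aligner, annotation version and strandedness are not given in the sources used here.

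The analysis used edgeR 4.0.16 and limma 3.58.1 under R 4.3.3. The expression filter kept 19108 of 60591 genes. A quasi-likelihood model of the 6 groups was fitted to all 12 libraries with TMM scaling, 6 residual and 20.7 prior degrees of freedom. P-values were adjusted by Benjamini-Hochberg over all tested genes, and genes under 0.05 were called. Nearest genes were ranked on log2 CPM with a prior count of 2. Positions, overlaps and pseudogenes named after the genes come from GENCODE 29 (GRCh38) and promoters from RefSeq (GRCh38.p14). FOXO3B was taken from the list of paralogs. The scripts were tested on simulated data.

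The 10 genes and the lists were chosen with earlier results of these data known. From the lists were named the 2 genes with the highest and the 2 with the lowest mean of the 4 drug changes (at least 5 CPM) in the FOXO target and paralog lists, and AKT1, AKT2, BCL2L11, CDKN1B, ARRDC4, TXN and MKI67. Other genes of the naming rule are not reported here. Alternatives were DESeq2 1.42.0, 2 other scalings (RLE and upper quartile), 2 other filters, a threshold of 0.01, a replicate block, 1 fit per cell line and leaving out each library.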

Additional observations from a re-analysis of the deposited data

Results flagged for a closer look

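For 9 of the 10 genes the response to erlotinib, and for 8 the response to osimertinib, differed between the lines by the test of the drug-by-line term. That term is the H1650 change less the PC9 change on the log2 scale (edgeR, adjusted by Benjamini-Hochberg). Each gene that passed is listed here for that reason. Over all tested genes the term was called higher for 21.1% and lower for 19.8% with erlotinib, and for 21.5% and 20.5% with osimertinib. The term was positive for FOXO1, at 1.05 with erlotinib (adjusted p = 5.5e-04) and 1.15 with osimertinib (1.9e-04), since FOXO1 fell in PC9 and rose in H1650. It was -1.02 (7.0e-04) and -0.95 (0.00121) for FOXO4, and -1.68 (6.0e-13) and -2.21 (2.6e-15) for TXNIP. CCNG2 had -1.46 (3.7e-10) and -1.40 (7.4e-10), although CCNG2 was higher in H1650 than in PC9 in every group. PIK3IP1 had -5.44 (4.5e-15) and -5.54 (2.4e-15), and CITED2 -3.57 (2.3e-17) and -3.65 (1.9e-17). KLHL24 had -2.62 (4.7e-14) and -2.69 (2.6e-14), and YPEL3 -1.77 (2.0e-10) and -2.15 (3.5e-12). BCL6 is listed for erlotinib alone (-0.44, 0.0193).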

How the results depend on the processing

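Of 2150 recomputed values of single genes, 2050 kept their direction and side of the threshold, 56 lost significance, 24 gained it and 20 changed sign, and the cause was not tested. All sign changes were in values that had not passed. FOXO1 between the drugs in PC9 became 0.011 with DESeq2, 0.0087 with RLE scaling and ranged from -0.168 to 0.158 with a library left out. BCL6 in the osimertinib drug-by-line term was 0.0089 without the filter and -0.116 to 0.0078 with a library left out. The left-out ranges that crossed 0 were also -0.0332 to 0.106 for TXNIP between the drugs in PC9, -0.165 to 0.110 for CITED2 with erlotinib in H1650, -0.081 to 0.049 for TXNIP with osimertinib in H1650, and -0.063 to 0.296 for FOXO1 between the drugs in H1650.

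Counts of called genes stayed within 1.5 times of those reported, except between the drugs in PC9. There the replicate block called 6 genes in place of 3, adding FOXO3, KLHL24 and YPEL3, and leaving out a library gave 1 to 4. With a library left out, H1650 with erlotinib gave 6 to 8 of its 9 calls. It gave 6 without replicate 2 at T0 or replicate 2 with erlotinib. The replicate block also ended the call of PIK3IP1 with erlotinib in H1650 (adjusted p = 0.0577) and added FOXO3 in the osimertinib drug-by-line term (0.0213) and CITED2 between the drugs in H1650 (0.00107). Same-numbered libraries deviated together by over 0.1 in 11 of 15 pairs of groups (correlations 2.7e-04 to 0.380), short of every pair, so the numbers were not taken as pairs. Upper quartile scaling moved the median of all genes from 0.0743 to 0.165 with erlotinib and from 0.0644 to 0.137 with osimertinib in PC9. Values of SD rest on 2 libraries, and the lowest levels, PIK3IP1 at T0 in PC9, on 18 and 20 reads.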

Other observations

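The remaining Yippee genes, named here after their values were seen, also moved in PC9. YPEL1 was at 0.448 ± 0.0638 CPM (SD, n = 2) at T0, 2.97 ± 0.671 with erlotinib and 2.84 ± 0.689 with osimertinib in PC9 (adjusted p = 5.7e-06 and 9.2e-06, edgeR's quasi-likelihood test). In H1650 YPEL1 was at 0.542 ± 0.222, 1.98 ± 0.766 and 0.862 ± 0.400 CPM (0.00116 and 0.306). YPEL4 was under the level of 3 reads at T0 in PC9 and at 1.35 ± 0.458 and 1.67 ± 0.0601 CPM with drug, while in H1650 it stood between 0.712 and 0.852 CPM in all groups. With YPEL2, YPEL3 and YPEL5, all 5 genes of the family passed the test upward with both drugs in PC9. Of all tested genes, 32.7% did with each drug.

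The fourth FOXO factor, FOXO6, was also named after its values were seen. It went from 7.19 ± 1.38 CPM at T0 to 15.9 ± 4.08 with erlotinib and 20.9 ± 2.32 with osimertinib in PC9, and from 4.30 ± 0.843 to 15.5 ± 1.71 and 15.9 ± 0.875 CPM in H1650 (adjusted p from 3.5e-09 to 1.8e-06). Its log2 change with erlotinib was larger in H1650 than in PC9 by 0.72 (0.0260), and with osimertinib by 0.35, which did not pass (0.292). KLF2, a factor under FOXO control in lymphocytes and endothelium, went the other way from most of the FOXO target list in PC9. It was at 7.86 ± 1.42 CPM at T0 in PC9 and 1.45 ± 0.170 and 1.58 ± 0.537 CPM with drug (7.9e-09 and 2.6e-08). In H1650 it was at 3.15 ± 0.0930 CPM at T0, 3.06 ± 0.0202 with erlotinib (0.938) and 1.62 ± 0.470 with osimertinib (0.00979).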
